A study of Mus musculus with 2 samples.

Results

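The 7 genes described here encode protease inhibitors, or proteins of inhibitor families, other than the *Stfa* genes: *Cst3*, *Cstb* and *Cst7* of the cystatins, *Serpinb1a* of the serpins, and *Slpi*, *Wfdc17* and *1100001G20Rik* of the whey acidic protein (WAP) family. They were chosen by name, as 7 of the 7915 genes listed in at least 1 of 2 Sc-RNA-Seq libraries, and all 7 were among the 6001 genes listed in both. *1100001G20Rik* is the older symbol of *Wfdc21*, and only the older symbol was listed. Each library held BMCs from the forelimbs and hindlimbs of 1 C57BL6/J mouse at postnatal day 21 after lysis of red blood cells. The WT mouse carried floxed *Mbtps1* alleles (the gene of site-1 protease, S1P) and no Cre. The S1P Cko mouse carried the same floxed alleles and the *Osx1-GFP::Cre* transgene, in which the osterix promoter of the osteoblast lineage drives Cre. The study describes Cre activity in hematopoietic marrow cells of these mice as well. By PCR and sequencing it found the floxed exon ablated in sorted neutrophils of every Cko mouse tested. The cells compared here may thus themselves carry the deletion, which these counts cannot show. No mouse with the transgene alone was sequenced, so an effect of the transgene and one of the deletion cannot be told apart.

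Cystatins fit into the active site of papain-like cysteine proteases such as the cathepsins. Cystatin C (*Cst3*) is secreted, stefin B (*Cstb*) stays in the cytosol, and cystatin F (*Cst7*) is carried to the lysosomes and granules of immune cells. Serpins trap serine proteases in a covalent complex, and Serpinb1a does so with the elastase, proteinase 3 and cathepsin G that neutrophils store in their granules. *Slpi* encodes the secretory leukocyte protease inhibitor, which blocks elastase and cathepsin G by its WAP domains, and *Wfdc17* and *1100001G20Rik* encode small secreted WAP proteins. In the marrow, the granule proteases are made in granulocyte-monocyte progenitors and promyelocytes, and the transcripts of many secondary granule proteins appear later in neutrophil maturation.

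The WT library held 56382459 unique molecular identifiers (UMIs, that is, counted RNA molecules) over 6271 kept cells and the Cko library 34447224 UMIs over 3662 cells, and 28 cell barcodes occurred in both. The cells were clustered together without the inhibitor genes, and clusters were named from marker genes. This gave granulocyte-monocyte progenitor-like cells (517 WT and 400 Cko cells), neutrophil-like cells (646 and 1184), monocyte-like cells (333 and 575), B cell-like cells (847 and 618) and erythroid-like cells (3594 and 576). Cluster 10 (235 and 220 cells) mixed dendritic, basophil, megakaryocyte and progenitor markers and was not named. Smaller classes (T/NK-like, macrophage-like, and stromal and endothelial-like) had under 50 cells in at least 1 library and were not compared. *Mbtps1* was at 31.9 CPM (UMIs of the gene scaled to 1e+06 UMIs) in the WT and 31.2 CPM in the Cko (Cko/WT ratio 0.976, 95% interval 0.904 to 1.05), but the libraries read the 3′ end of transcripts, outside the floxed exon, so this value checks nothing. Each genotype is thus a single animal, differences between them have no replicate check, and no p-value is given. The 95% intervals (exact Poisson for levels, exact binomial for shares, exact conditional for ratios) cover counting error only.

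Within each library the 7 genes had distinct homes. *1100001G20Rik* was a neutrophil transcript, *Cst7* a progenitor transcript, *Serpinb1a* was shared by progenitor-like and neutrophil-like cells, *Cst3* and *Cstb* were highest among the compared classes in monocyte-like cells, *Wfdc17* was largely held by monocyte-like cells and *Slpi* spread over all myeloid classes. Summed over the 7 genes, they made up 0.817% of the UMIs of neutrophil-like cells in the WT and 0.905% in the Cko. Most of that came from *1100001G20Rik* alone, at 6508 CPM (WT) and 7090 CPM (Cko). The sum of the 7 genes was 0.310% (WT) against 0.316% (Cko) in progenitor-like cells and 0.0264% against 0.0351% in erythroid-like cells. Levels are compared here between cell classes for 1 gene at a time, because 3′ counts do not set different genes on 1 scale.

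**Figure D1:**
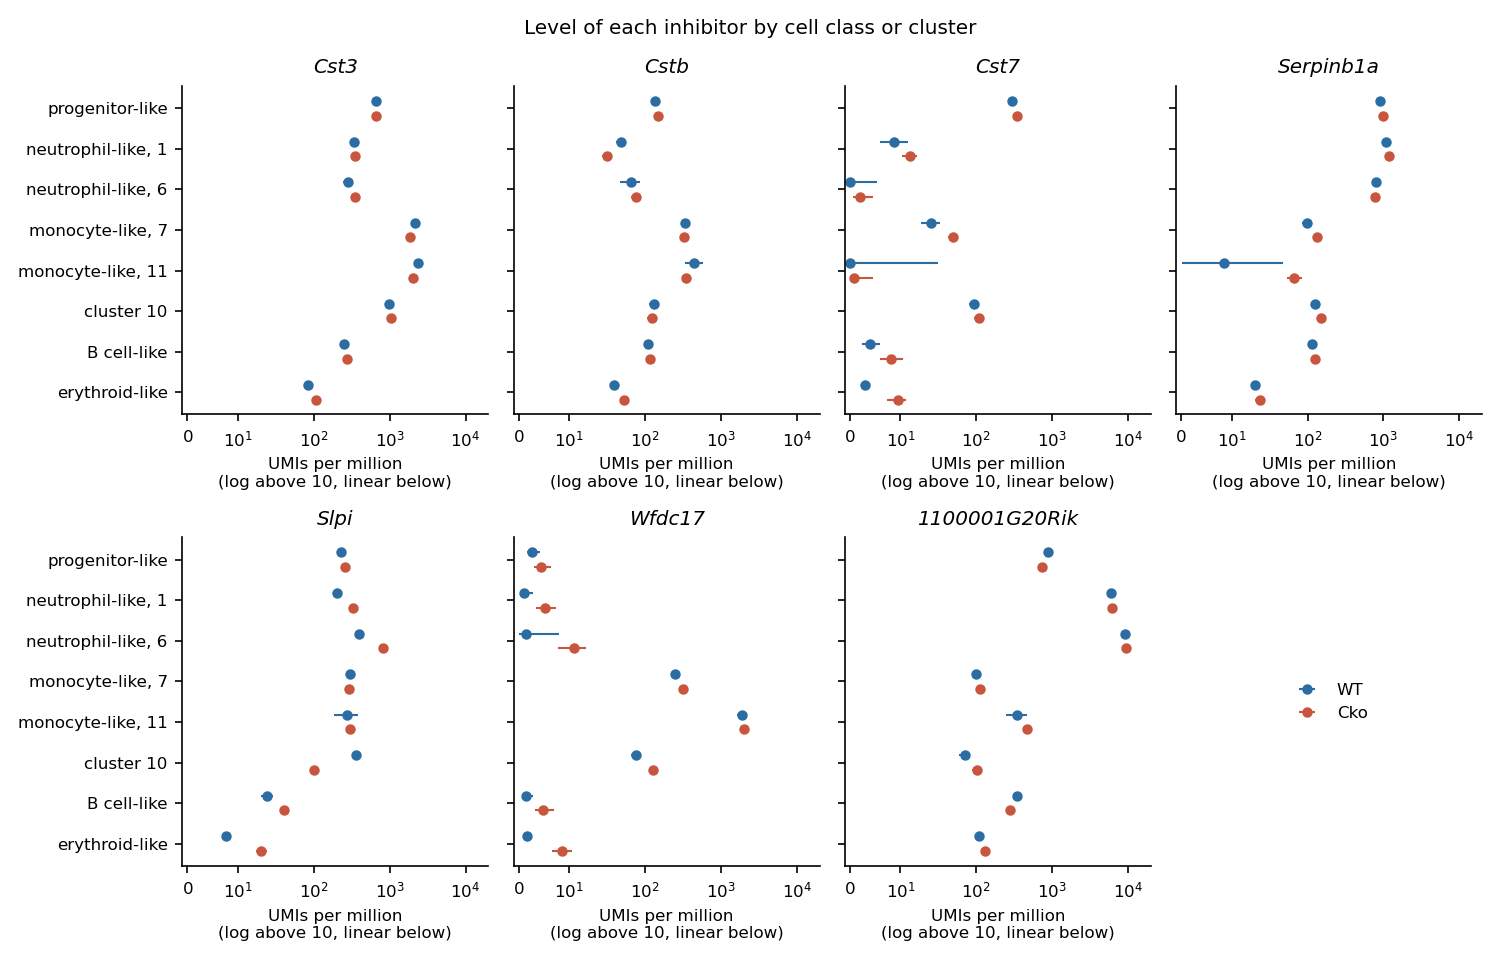
Level of each inhibitor in CPM (horizontal axis, logarithmic above 10 and linear below) by cell class or cluster, with the WT in blue and the Cko in red. Points are UMIs summed over the cells of 1 library and bars are exact Poisson 95% intervals. Of the points at over 100 CPM in both libraries, those with the largest ratios between blue and red are *Slpi* in neutrophil-like cluster 6 (389 against 819 CPM) and in cluster 10 (361 against 102 CPM).

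*Cst3* lies at chr2:148871722-148875692 (minus strand, GRCm38). In the WT its level was 2161 CPM in monocyte-like cells, 989 CPM in cluster 10, 908 CPM in the 50 macrophage-like cells, 652 CPM in progenitor-like cells, 329 CPM in neutrophil-like cells, 249.7 CPM in B cell-like cells and 83.8 CPM in erythroid-like cells. Of neighbours in this order, the intervals of cluster 10 and the macrophage-like cells overlapped and no others. The Cko classes of at least 50 cells had the same order, with 1880 CPM in monocyte-like, 1048 CPM in cluster 10, 665 CPM in progenitor-like, 346 CPM in neutrophil-like, 273 CPM in B cell-like, 204 CPM in the 62 T/NK-like and 106 CPM in erythroid-like cells, where B cell-like and T/NK-like cells overlapped. When cluster 10 was split further, the 140 WT and 144 Cko cells led by *Siglech*, a marker of plasmacytoid dendritic cells, held 1878 CPM and 1579 CPM of *Cst3*. High *Cst3* was thus found in monocyte-like and dendritic-like cells of both mice. In the 18 Cko stromal and endothelial-like cells it was at 2208 CPM (1955 to 2484), and in the 29 WT cells of that name at 939 CPM (810 to 1082), but 1 Cko cell alone held 131 of the 277 UMIs (in the WT at most 42 of 191).

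*Cstb*, at chr10:78425669-78427622 (plus strand), followed *Cst3* most closely of the 7 genes. The Pearson correlation of their log2(CPM + 10) levels was 0.94 over the 29 clusters and libraries with at least 50 cells, a description over points that share libraries and depth. The WT level of *Cstb* was 338 CPM in monocyte-like and 316 CPM in macrophage-like cells, with overlapping intervals. It was 137 CPM in progenitor-like cells, 129.6 CPM in cluster 10 and 108 CPM in B cell-like cells, each overlapping with the next, and 51.1 CPM in neutrophil-like and 39.0 CPM in erythroid-like cells. The Cko values were 332 CPM in monocyte-like, 148 CPM in progenitor-like, 122 CPM in cluster 10, 115 CPM in B cell-like, 52.0 CPM in erythroid-like and 44.7 CPM in neutrophil-like cells. Neutrophil-like cells, in which the 7 compared *Stfa* genes were at their highest, had the lowest or next to lowest level of this cytosolic stefin. For comparison, *Ctsb*, *Ctsh*, *Ctss* and *Ctsz*, cysteine proteases that cystatins can inhibit, were also highest among the compared classes in monocyte-like cells. Their levels were 393, 453, 646 and 329 CPM in the WT and 340, 471, 807 and 254 CPM in the Cko, in that order. So was *Ctsc* highest there (509.8 and 312 CPM). The others of the 9 listed cysteine proteases, named after their values were seen, did not share this peak in both libraries. *Ctsl* (52.95 and 66.2 CPM) and *Ctsw* (3.025 and 2.92 CPM) were highest in cluster 10, and *Ctsk* (6.26 and 19.7 CPM) in erythroid-like cells. *Lgmn* was highest in B cell-like cells of the WT (26.6 CPM) and monocyte-like cells of the Cko (25.6 CPM).

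*Cst7*, at chr2:150570415-150578944 (plus strand), was at 298 CPM (285 to 311) in WT and 343 CPM (329 to 358) in Cko progenitor-like cells. These cells held 82.8% of all *Cst7* UMIs of the WT library and 78.9% of those of the Cko library. The next class was cluster 10, with 93.8 CPM in the WT and 107 CPM in the Cko. The 62 Cko T/NK-like cells were at 84.9 CPM (56.0 to 124), overlapping with cluster 10. In the 20 WT T/NK-like cells *Cst7* was at 82.2 CPM (41.0 to 147). Within cluster 10 the basophil and mast cell-like cells reached 374 CPM in 18 WT cells and 315 CPM in 22 Cko cells. Past the progenitors the transcript was almost absent from the neutrophil line: it was at 8.82 CPM in WT and 13.4 CPM in Cko cells of neutrophil-like cluster 1, led by *Chil3*, *Ngp* and *Camp*. In cluster 6, led by the later genes *Mmp8*, *Retnlg* and *Ly6g*, there were 0 UMIs in the WT and 5 in the Cko. The genes most like *Cst7* over the 29 points, among 2727 genes, were *Ctsg* (r = 0.91), *Mpo* (0.90) and *Nkg7* (0.89), the first of which encodes cathepsin G of the primary granules.

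*Serpinb1a*, at chr13:32842092-32851185 (minus strand), was at 901 CPM (878 to 924) in WT progenitor-like and 1036 CPM (1005 to 1067) in WT neutrophil-like cells. The Cko values were 1004 CPM (979 to 1028) and 1072 CPM (1050 to 1095). The other compared classes were at or below 127 CPM in the WT and 149 CPM in the Cko. Along the neutrophil line the level was 1083 CPM in cluster 1 and 794 CPM in cluster 6 of the WT, and 1205 CPM and 775 CPM in the Cko. This differed from the proteases it inhibits. *Elane*, the gene of neutrophil elastase, was at 14410 CPM in WT progenitor-like and 579 CPM in WT neutrophil-like cells, and at 12440 and 467 CPM in the Cko. *Ctsg* was at 3950 and 18.5 CPM in the WT and at 4191 and 21.4 CPM in the Cko. The inhibitor transcript was higher in neutrophil-like than in progenitor-like cells of both libraries (1.15 times in the WT and 1.07 times in the Cko), whereas the protease transcripts were mostly found in the latter. Within 500 kb lie 10 other *Serpinb* genes or pseudogenes, among them *Serpinb1b*, *Serpinb1c* and *Serpinb1-ps1*, so reads shared with these copies may be missing from the *Serpinb1a* count.

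*1100001G20Rik*, annotated as *Wfdc21* at chr11:83746940-83752642 (plus strand), was at 6508 CPM (6431 to 6586) in WT and 7090 CPM (7033 to 7147) in Cko neutrophil-like cells. In progenitor-like cells it was at 880.0 CPM in the WT and 742 CPM in the Cko. It was at 5962 CPM in cluster 1 and 9276 CPM in cluster 6 of the WT, and at 6078 and 9359 CPM in the Cko, so that both libraries gave nearly the same values at each step. All neutrophil-like cells of both libraries held a UMI of it after thinning to 3000 UMIs per cell. Its nearest genes by pattern were *S100a9* (r = 0.99), *Ngp* (0.99) and *Camp* (0.99), all abundant neutrophil transcripts.

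RNA from broken cells can reach other droplets, and *S100a8*, an abundant neutrophil transcript, was used to gauge it. In B cell-like cells *1100001G20Rik* was at 5.31% of its neutrophil-like level in the WT and 3.96% in the Cko, beside 4.99% and 4.005% for *S100a8*. In erythroid-like cells the shares were 1.67% and 1.85%, beside 1.59% and 1.85% for *S100a8*. Most of the B cell-like signal came from cluster 13 (75 WT and 74 Cko cells), which held 90.8% and 83.5% of these UMIs and in which *S100a8* was at 110200 CPM and 84760 CPM, 55.9% and 43.7% of its neutrophil-like level. In B cell-like cluster 5 *1100001G20Rik* was at 28.3 CPM (WT) and 60.3 CPM (Cko), and in clusters 5 and 9 it was at 0.434% to 0.851% of its neutrophil-like level. *S100a8* was at 0.364% to 0.703% of its own there. Levels of this size, near the shares of *S100a8*, are not read as expression. The part of free RNA in them and of doublets in cluster 13 was not tested. Likewise erythroid-like cluster 12 (196 WT and 29 Cko cells) held 64.6% and 59.6% of the erythroid-like UMIs of *1100001G20Rik*, with *S100a8* at 19.1% and 20.7% of its neutrophil-like level.

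**Figure D2:**
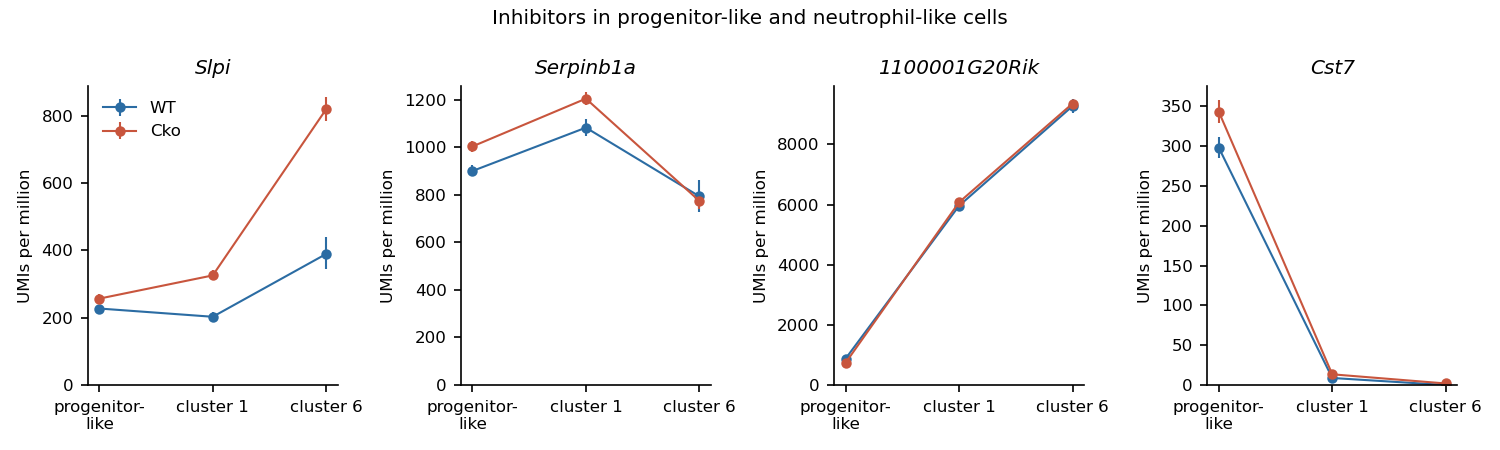
Level in CPM (vertical axis, linear from 0) of 4 inhibitors in progenitor-like cells and in neutrophil-like clusters 1 and 6, for WT (blue) and Cko (red), with exact Poisson 95% intervals. *1100001G20Rik* lies on the same line in both libraries and *Cst7* is near 0 after the progenitors, while *Slpi* parts between the libraries from cluster 1 (203 and 325 CPM) to cluster 6 (389 and 819 CPM).

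The comparison of the Cko with the WT asked whether the inhibitors outside the *Stfa* family differed with the genotype. Genes with at least 100 UMIs over both libraries in a class were compared, and a Cko/WT ratio of at least 1.5, or at most its inverse, was taken as past the limit. In progenitor-like cells 0 of 6 compared inhibitors were past the limit (2.31% of all 5064 genes were higher and 2.98% lower), with ratios from 0.843 for *1100001G20Rik* to 1.15 for *Cst7*. In neutrophil-like cells 1 of 6, *Slpi*, was higher and 0 lower (background 4.1% higher and 3.96% lower of 4266 genes). The median log2 ratio of the compared inhibitors there was 0.10, beside -0.05 for all compared genes. All 7 compared genes of the *Stfa* family were past the limit in the same cells, with a median log2 ratio of 1.33. The study had already reported more expression of this family in Cko neutrophils of these same libraries, so this count is no independent check. The *Stfa* genes are also close homologues in a gene cluster. In neutrophil-like cells the ratios of *Cst3* (1.05, 0.986 to 1.12), *Serpinb1a* (1.04, 0.998 to 1.07) and *1100001G20Rik* (1.09, 1.07 to 1.105) lay close to 1. *Wfdc17* was not compared in progenitor-like or neutrophil-like cells, for lack of UMIs (18 and 29, and 5 and 60, in the WT and Cko).

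**Figure D3:**
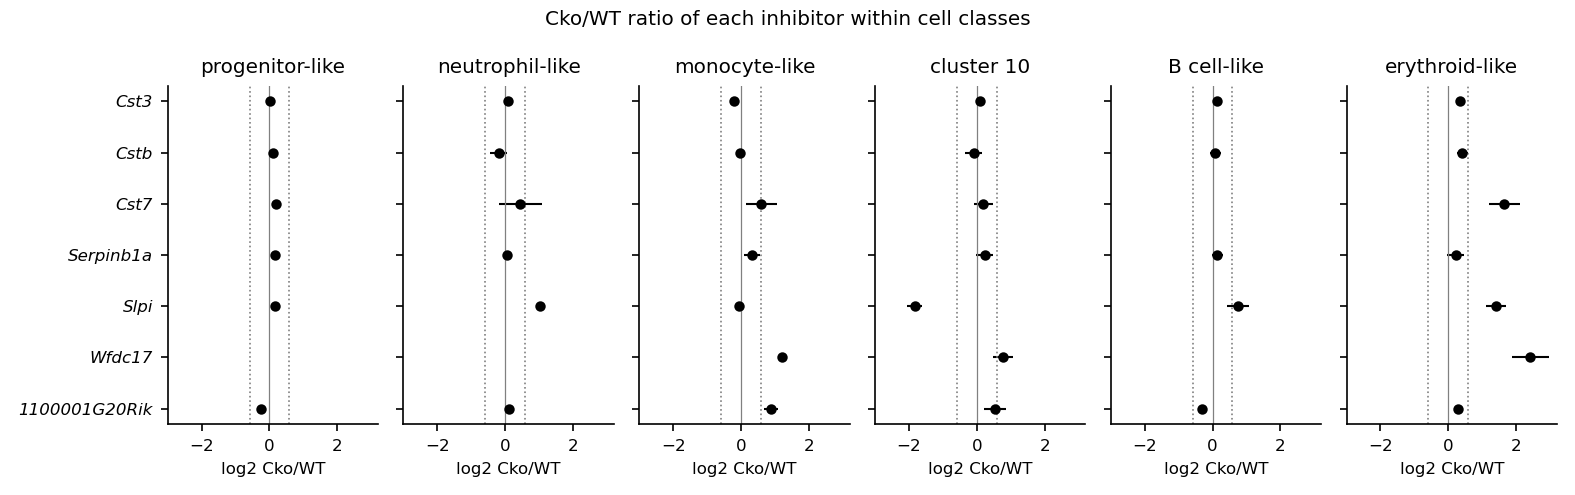
Log2 Cko/WT ratio (horizontal axis) of each inhibitor with at least 100 UMIs in a class, with exact conditional 95% intervals and dotted lines at a 1.5-fold difference. In neutrophil-like cells *Slpi* alone is past the line (log2 1.03), and in cluster 10 it lies on the other side (log2 -1.83).

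*Slpi*, at chr2:164354070-164389095 (minus strand, with the microRNA gene *Mir7678* inside its span), had the largest ratio of the 6 inhibitors compared in neutrophil-like cells. Its level was 233 CPM (219 to 248) over 982 UMIs in the WT and 478 CPM (463 to 493) over 4009 UMIs in the Cko, a ratio of 2.05 (1.91 to 2.20). The value did not rest on a few cells. No WT cell held more than 8 and no Cko cell more than 27 of these UMIs. The 5 richest cells of each library held 3.46% and 2.79% of the UMIs. A WT neutrophil-like cell had a median of 2.16 *Slpi* UMIs per 10000 and a Cko cell 3.62, and the 90th percentiles were 5.83 and 14.6. After thinning to 3000 UMIs, with no cell left out, 51.2% (47.3 to 55.2%) of WT and 65.7% (62.9 to 68.4%) of Cko neutrophil-like cells held a *Slpi* UMI, beside 1.84% and 3.65% of erythroid-like cells. Without thinning these shares were 74.3% and 87.1%, and 4.81% and 9.72%, at median depths of 5879.5 and 6020.5 UMIs in neutrophil-like and 7105 and 9057 UMIs in erythroid-like cells.

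The *Slpi* level was higher in the later neutrophil-like cells of both libraries, and so was the ratio. In cluster 1 it was 203 CPM in the WT and 325 CPM in the Cko (ratio 1.61, 1.47 to 1.75). In cluster 6 it was 389 and 819 CPM (ratio 2.10, 1.85 to 2.40). In cluster 6 it was the 1 inhibitor of 5 past the limit, and 0 were lower (background 8.31% higher and 2.9% lower of 1792 genes). When neutrophil-like cells of both libraries were divided into 3 bins of equal size by 5 genes of late against 6 genes of earlier maturation, *Slpi* was at 207 and 278 CPM in the lowest bin (ratio 1.35, 1.20 to 1.51), 223 and 328 CPM in the middle bin (1.47, 1.29 to 1.67) and 389 and 887 CPM in the highest bin (2.28, 1.97 to 2.66). The score used UMI sums not scaled to depth, and the part of depth in the order of the cells was not tested. The cells were unevenly spread, with 304 WT and 306 Cko cells in the lowest bin but 107 and 503 in the highest. Cluster 6 likewise held 26.5% of WT and 46.4% of Cko neutrophil-like cells, and the part of this shift in the overall ratio was not tested beyond these divisions. *Serpinb1a* had ratios of 1.13, 1.19 and 0.894 in the same bins. *1100001G20Rik* was at 6019 and 6020 CPM in the lowest bin, 6728 and 6562 CPM in the middle bin and 8185 and 8955 CPM in the highest bin.

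In the other myeloid classes *Slpi* did not stand apart. It was at 227 CPM in WT and 257 CPM in Cko progenitor-like cells (ratio 1.13, 1.05 to 1.21) and at 301 CPM and 292 CPM in monocyte-like cells (0.969, 0.882 to 1.06). In the WT the order was cluster 10, monocyte-like, neutrophil-like and progenitor-like cells, of which the last pair overlapped. Neutrophil-like cells came first in the Cko, followed by monocyte-like and progenitor-like cells, with no overlap.

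In cluster 10 *Slpi* was lower in the Cko: 361 CPM (335 to 389) over 716 UMIs in the WT against 102 CPM (88.4 to 117) over 209 UMIs in the Cko (ratio 0.282, 0.240 to 0.329). This value did rest on a few cells, because the 5 richest WT cells held 447 of the 716 UMIs, up to 137 in 1 cell, and the 5 richest Cko cells 79 of 209. Without these 5 cells of each library the log2 ratio was -1.18 in place of -1.83. Split further, 34 WT and 16 Cko cells led by *Pf4*, *Ppbp* and *Gp1bb*, genes of megakaryocytes and platelets, held *Slpi* at 979 CPM (901 to 1062) and 314 CPM (251 to 388). In the cells led by *Siglech* it was at 89.8 and 51.9 CPM, in the progenitor-like ones at 108 and 69.6 CPM, and in the 18 WT and 22 Cko basophil and mast cell-like ones at 87.5 and 203 CPM. Of the inhibitors on the other lists, 2 of 5 serpins, 1 of 1 metalloprotease inhibitor, 0 of 2 cystatin-like and 0 of 2 WAP, Kunitz or Kazal inhibitors compared in cluster 10 were lower in the Cko (background 11%) and 0 were higher. Those lower were the metalloprotease inhibitor *Timp3* (244 and 36.0 CPM, ratio 0.148), *Serpine2* (127 and 29.2 CPM, 0.231) and *Serpinb10* (45.4 and 16.1 CPM, 0.354), whereas *Serpina3g* (103 and 84.2 CPM) and *Spint2* (82.7 and 121 CPM) lay inside the limit. The cells led by *Pf4* were 34 of 235 in the WT and 16 of 220 in the Cko, and the part of this makeup in the ratios was not tested. Of the 7 inhibitors 1, *Slpi*, was lower there (background 11%) and 1, *Wfdc17*, higher (background 3.66%), at 76.1 and 129 CPM (ratio 1.69, 1.38 to 2.08).

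The 300 bases around the RefSeq start of *Slpi* (250 before and 50 after it, GRCm38.p6) are printed because this was the inhibitor past the limit in neutrophil-like cells. Capitals mark matches, on either strand, to TTNNGNAA, the pattern bound by C/EBP factors of granulocyte differentiation, or to GAGGAA, a core bound by PU.1. TTNNGNAA was found 3 times and GAGGAA 0 times. At least 1 match was held by 40.7% of 32851 promoters of the same length for TTNNGNAA and by 28.3% for GAGGAA, and a match is no evidence of binding.
*Slpi* promoter, chr2:164356458-164356757, minus strand: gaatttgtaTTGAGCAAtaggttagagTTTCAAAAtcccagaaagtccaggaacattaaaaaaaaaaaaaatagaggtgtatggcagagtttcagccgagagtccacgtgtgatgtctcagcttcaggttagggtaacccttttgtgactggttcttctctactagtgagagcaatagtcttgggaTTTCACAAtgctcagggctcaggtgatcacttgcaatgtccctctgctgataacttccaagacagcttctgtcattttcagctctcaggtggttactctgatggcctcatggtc

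In monocyte-like cells 3 of 7 inhibitors were past the limit toward the Cko, *Wfdc17*, *1100001G20Rik* and *Cst7*, and 0 were lower (background 5.32% higher and 6.97% lower of 4489 genes). These calls depended on which cells were put in the class. With the inhibitors in the clustering 0 of 6 compared were past the limit, *Wfdc17* being at log2 0.49 and *1100001G20Rik* at 0.10, and *Cst7* had too few UMIs to be compared. With each library clustered alone the log2 ratio was 0.96 for *Wfdc17*, -0.33 for *1100001G20Rik* and -2.17 for *Cst7*. *Wfdc17*, at chr11:83703991-83706268 (plus strand), in the same WAP gene cluster as *Wfdc21*, was at 336 CPM (312 to 361) over 760 UMIs in the WT and 779.7 CPM (754 to 806) over 3444 UMIs in the Cko (ratio 2.32, 2.15 to 2.515). These cells held 72.2% of all *Wfdc17* UMIs of the WT and 87.9% of those of the Cko. The class had a pair of clusters with very different levels. In cluster 7, led by *Fn1*, *Ms4a6c* and *F13a1*, *Wfdc17* was at 251.5 CPM in 301 WT and 319 CPM in 320 Cko cells. In cluster 11, led by *Sirpb1c*, *Apoe* and *Ccl6*, it was at 1880 CPM (1639 to 2145) in 32 WT and 2007 CPM (1928 to 2089) in 255 Cko cells. The intervals of cluster 11 overlapped between the libraries. Cluster 11 made up 9.61% of the WT and 44.4% of the Cko monocyte-like cells, and held 29.0% and 70.2% of their *Wfdc17* UMIs. Within cluster 7 the ratio of *Wfdc17* was 1.27 (1.14 to 1.41), inside the limit.

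Outside the monocyte-like class *Wfdc17* was found mainly in cluster 10, where the cells led by *Siglech* had 159 CPM (133 to 189) in the WT and 209 CPM (183 to 238) in the Cko. After thinning, 48.6% of WT and 71.1% of Cko monocyte-like cells held a UMI of it, against 0.155% and 1.27% of neutrophil-like cells (70.0% and 85.6%, and 0.774% and 2.62%, without thinning, at the depths given above for neutrophil-like cells and medians of 6040 and 5847 UMIs in monocyte-like cells). The 3 genes most like it over the 29 points were *Pid1* (r = 0.98), *Ppfia4* (0.94) and *Cx3cr1* (0.93), the last a chemokine receptor known for nonclassical monocytes. It was at 110.5 CPM in the 50 WT macrophage-like cells.

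Within cluster 7 *1100001G20Rik* also lay inside the limit (100.2 and 112 CPM, ratio 1.12, 0.943 to 1.33), while over all monocyte-like cells it was at 113 and 209 CPM (1.86, 1.615 to 2.14). Its level there was 1.73% of the neutrophil-like level in the WT and 2.95% in the Cko, beside 4.58% and 5.21% for *S100a8*, which monocytes are also known to express. Cluster 11, at 342 and 468 CPM, held 15.7% (WT) and 61.0% (Cko) of these UMIs. The 5 richest monocyte-like cells held 121 of the 255 *1100001G20Rik* UMIs in the WT and 255 of 924 in the Cko. The median cell held 0 in both libraries, so the class level rested in large part on a few cells. The part of free RNA in these UMIs was not tested. *Cst7* was at 23.9 CPM over 54 UMIs in WT and 36.0 CPM over 159 UMIs in Cko monocyte-like cells (ratio 1.51, 1.10 to 2.10), at the edge of the limit. In cluster 7 alone it was at 25.2 and 49.2 CPM (1.96, 1.43 to 2.72), and it was the 1 inhibitor of 7 past the limit there, with 0 lower (background 3.21% higher and 3.99% lower). Over all monocyte-like cells *Cst3* had a ratio of 0.870 (0.840 to 0.901), and *Cstb* one of 0.985 (0.902 to 1.08).

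The promoter of *Wfdc17*, cut in the same way, held TTNNGNAA 2 times and GAGGAA 1 time, counted on both strands. It is shown because *Wfdc17* had the highest ratio of the 7 genes over all cells.
*Wfdc17* promoter, chr11:83703806-83704105, plus strand: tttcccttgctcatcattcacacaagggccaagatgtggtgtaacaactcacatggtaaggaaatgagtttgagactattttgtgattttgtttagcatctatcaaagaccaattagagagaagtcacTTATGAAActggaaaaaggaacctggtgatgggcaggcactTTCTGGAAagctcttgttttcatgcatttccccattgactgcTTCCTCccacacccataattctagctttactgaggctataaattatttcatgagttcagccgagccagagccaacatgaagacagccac

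**Figure D4:**
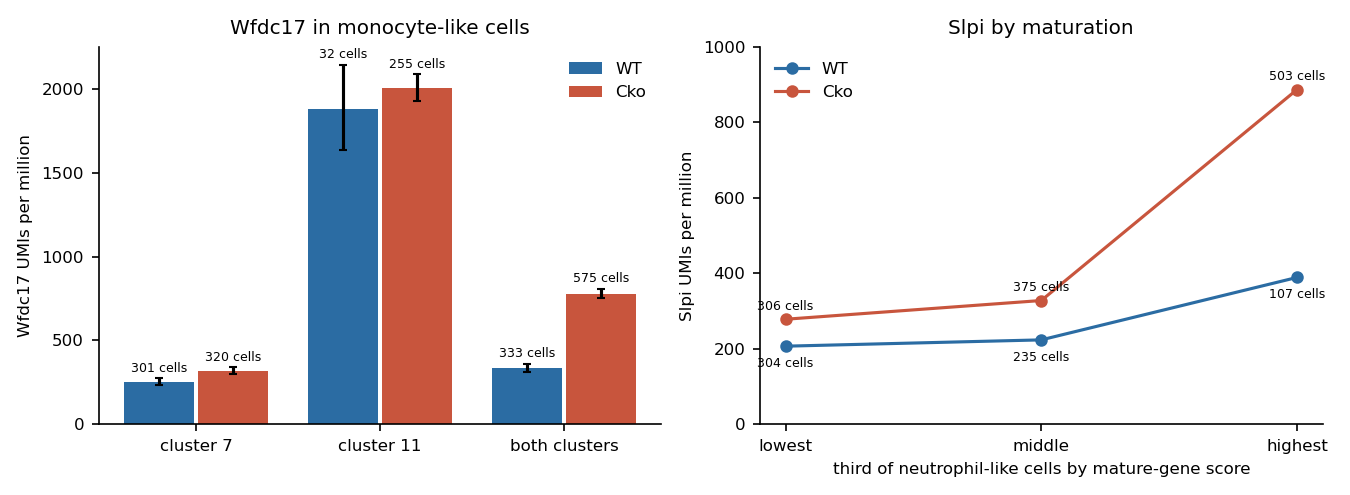
Left, *Wfdc17* in CPM with exact Poisson 95% intervals in monocyte-like clusters 7 and 11 and in both together. The bars of WT (blue) and Cko (red) nearly match within cluster 11 (1880 and 2007 CPM), while the class as a whole differs (336 and 779.7 CPM). Right, *Slpi* in CPM in 3 bins of the neutrophil-like cells along a maturation score, where the libraries part most in the highest bin (389 and 887 CPM).

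In neutrophil-like cluster 1 taken alone, 2 of 6 inhibitors were higher and 1 lower in the Cko (background 3.66% higher and 2.23% lower of 3989 genes). *Cst7* (8.82 and 13.4 CPM, ratio 1.52, 0.993 to 2.39) and *Slpi* were past the limit toward the Cko, and *Cstb* was past it toward the WT, at 48.4 CPM in the WT and 31.2 CPM in the Cko (ratio 0.644, 0.520 to 0.799). The lowest bin by maturation gave 42.9 and 30.2 CPM for *Cstb* (0.703, 0.521 to 0.948) and the middle bin 53.2 and 32.6 CPM (0.613, 0.449 to 0.840). In cluster 6 *Cstb* was at 64.9 and 74.9 CPM (1.16, 0.832 to 1.64). Over all neutrophil-like cells its ratio was 0.874 (0.737 to 1.04).

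In B cell-like cells 1 of 5 compared inhibitors, *Slpi*, was past the limit toward the Cko (24.2 and 40.6 CPM, ratio 1.68, background 2.36%), and 0 were lower (background 2.93%). Of these UMIs, 60.6% in the WT and 63.5% in the Cko were in cluster 13, and without called doublets the ratio was inside the limit (log2 0.57). In erythroid-like cells 3 of 7 were higher in the Cko (background 7.01%) and 0 lower (background 6.42%): *Cst7* (3.001 and 9.42 CPM), *Slpi* (7.71 and 20.4 CPM) and *Wfdc17* (1.62 and 8.58 CPM). These levels were at most 4.27% of those of the class with the highest level. *Slpi* in B cell-like cells was at 6.71% and 8.51% of its highest class, and in erythroid-like cells at 2.13% and 4.27%. That class was the unnamed cluster in the WT and neutrophil-like cells in the Cko. The shares given for *S100a8* were lower, but neutrophil transcripts of the *Stfa* family varied in this. *BC100530* was at 2596 and 6280 CPM in neutrophil-like, 70.1 and 268.5 CPM in B cell-like and 47.8 and 289 CPM in erythroid-like cells. *Gm5483* was at 339 and 853, 18.6 and 79.8, and 11.3 and 78.75 CPM there. Whether *Slpi* stood above neutrophil RNA as a whole was not tested. Erythroid-like cluster 12 held 47.9% and 58.6% of the *Slpi* UMIs of erythroid-like cells. The part of free RNA and of doublets in these ratios was not tested.

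Over all cells, without regard to class, all 7 inhibitors were past the limit toward the Cko and 0 were lower (background 18.4% higher and 13.3% lower of 5871 genes). The levels in the WT and Cko were 311 and 591 CPM for *Cst3* (ratio 1.91), 42.3 and 82.8 CPM for *Cst7* (1.96) and 76.4 and 121 CPM for *Cstb* (1.58). They were 216 and 502 CPM for *Serpinb1a* (2.32), 76.5 and 221 CPM for *Slpi* (2.89), 18.7 and 114 CPM for *Wfdc17* (6.10) and 703 and 1980 CPM for *1100001G20Rik* (2.815). The cell makeup differed between the libraries, since erythroid-like cells were 57.3% of WT and 15.7% of Cko cells, and the part of red cell lysis in that share was not tested. When each Cko class was weighted by its share of UMIs in the WT, the ratios were 1.06, 1.26, 1.15, 1.10, 1.29, 2.435 and 1.05 in the same order, and *Wfdc17* alone stayed past the limit. This weighting keeps the unequal shares of clusters 7 and 11 among monocyte-like cells. When clusters and not classes were weighted, an alternative chosen after the data were seen, the ratio of *Wfdc17* was 1.59 and those of the other 6 lay between 0.996 and 1.26. Within monocyte-like cluster 7 its ratio was 1.27, and in cluster 11 the intervals overlapped. The 1.59 also takes in erythroid-like cells, where *Wfdc17* was at 1.62 and 8.58 CPM (ratio 5.31). Cluster 12 held 37.5% (WT) and 62.3% (Cko) of those UMIs, and the part of free RNA in them was not tested. With non-erythroid cells only, *Wfdc17* was again the 1 inhibitor of 7 past the limit.

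**Figure D5:**
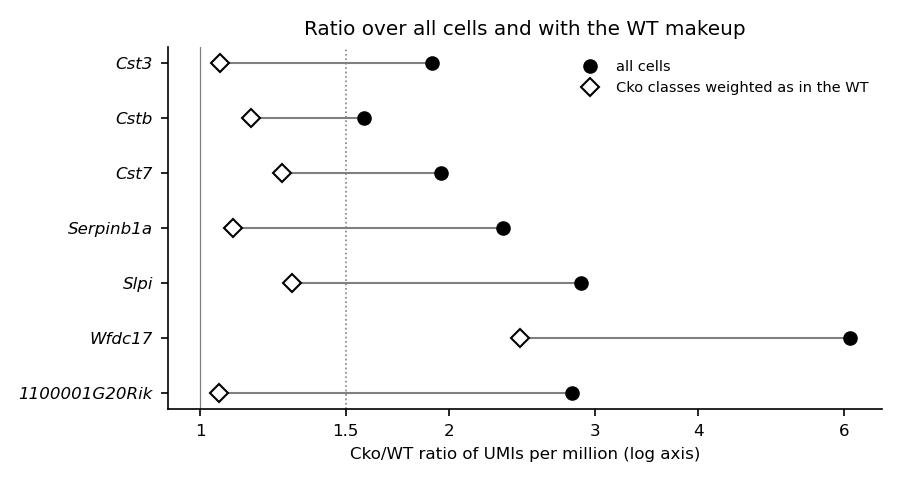
Cko/WT ratio of each inhibitor over all cells (filled circles) and with the Cko classes weighted as in the WT (open diamonds), on a logarithmic axis with a dotted line at 1.5. All 7 circles lie past the line (1.58 to 6.10), and of the diamonds only that of *Wfdc17* does (2.435, or 1.59 with clusters in place of classes).

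Other inhibitors from the fixed lists were compared in the same way. Of 22 other serpins 9 were listed in both libraries, and in neutrophil-like cells 1 of 3 compared was higher in the Cko and 0 lower (background 4.1% and 3.96%). The 1 was *Serpine2*, an inhibitor of thrombin and plasminogen activators, at 24.2 and 42.9 CPM (ratio 1.77, 1.42 to 2.23). In progenitor-like cells 1 of 4 was higher, *Serpinf1* (15.5 and 25.2 CPM, named after its value was seen), and 1 lower, *Serpina3g* (32.0 and 7.17 CPM, ratio 0.224), beside a background of 2.31% and 2.98%. Of the other cystatin-like or calpain inhibitors 0 of 1 was past the limit in neutrophil-like cells and 0 of 1 in progenitor-like cells. *Ctla2a*, which resembles the propeptide of cathepsins, was found mainly in cluster 10 (739 and 757 CPM). Of the other WAP, Kunitz or Kazal inhibitors, 0 of 1 was past the limit in neutrophil-like and 0 of 2 in progenitor-like cells, where *Spint2* was at 106 and 142 CPM. Of the metalloprotease or broad inhibitors 0 of 1 was past the limit in neutrophil-like cells. Among the target proteases, 0 of 4 granule serine proteases were higher and 1, *Prss57* (74.2 and 46.6 CPM), lower in Cko neutrophil-like cells, and in progenitor-like cells 2 of 6 were higher, the basophil protease *Mcpt8* (33.3 and 58.1 CPM) and *Cela1* (6.49 and 10.4 CPM, named after its value was seen), and 0 lower. Of 3 cysteine proteases compared in neutrophil-like cells, 0 were higher and 1, *Ctsb* (114 and 74.7 CPM, ratio 0.655), was lower. Of 7 cysteine proteases compared in monocyte-like cells (background 5.32% and 6.97%), 1 was higher in the Cko, *Ctsl* (25.6 and 39.2 CPM, named after its value was seen), and 1 lower. The latter was *Ctsc*, the cathepsin that activates granule serine proteases and is a known target of cystatin F, at 509.8 and 312 CPM (ratio 0.611).

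Cells often held several of these transcripts at once. After thinning, the median cell held UMIs of 4 of the 7 genes among progenitor-like cells, 3 among neutrophil-like and monocyte-like cells, 1 among B cell-like and 0 among erythroid-like cells, in both libraries. At least 4 of the 7 were seen in 35.4% of WT and 44.2% of Cko neutrophil-like cells, 30.6% and 40.2% of monocyte-like cells, and 53.4% and 53.5% of progenitor-like cells.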

How the data were processed

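Sc-RNA-Seq was done on BMCs of a WT mouse and a Cko mouse. The authors prepared 3′ libraries (Chromium, kit v2), aligned and counted the reads with Cell Ranger (version not given in the sources used here) on GRCm38 per the submitters' processing notes, and deposited UMI counts as whole numbers. Every gene in the tables had 4 or more UMIs in some cell, so an unlisted gene was not taken as 0. Cells with at least 200 genes were kept. Scrublet (scanpy 1.11.5) called 127 WT and 51 Cko cells as doublets, which were kept.

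Both libraries were clustered together with Seurat 5.3.0 in R 4.3.3 (log-normalization to 10000, 2000 variable genes, 20 components, 20 neighbours, mitochondrial and ribosomal shares regressed out, resolution 0.5, all inhibitor genes left out), which gave 18 clusters. A cluster was named when at least 3 fixed markers passed (in at least 25% of its cells, at 1.5-fold or more) and led its 25 top genes. Because names were rebuilt, a difference from the study may come from this step. CPM is the UMIs of a gene in a class scaled to 1e+06. For maturation, cells were ordered by the log2 ratio of summed late (*Retnlg*, *Mmp8*, *Cxcr2*, *Il1b*, *Ccl6*, *Csf3r*, of which 5 were listed in both) to earlier genes (*Camp*, *Ngp*, *Ltf*, *Cebpe*, *Chil3*, *Fcnb*), 1 added to each sum, cut at -9.32 and -7.74, with 236 and 99 of 1830 cells within 0.25 of a cut.

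Besides the 7 inhibitors, the named genes were *Mbtps1*, the 3 genes most like each inhibitor, list genes of at least 100 CPM in a class, and *S100a8*. *Serpinb10* is below that in cluster 10 but above it in monocyte-like cells. The members and lists were chosen with earlier results of these data known. Gene positions are from GENCODE vM21 (all 7 matched) and promoters from RefSeq (GRCm38.p6, 4 of 7 matched). Ratio intervals were checked on simulated Poisson counts only. That check cannot show how they hold where UMIs are unevenly spread over cells or mice. Other software was matplotlib 3.10.9, pandas 2.3.3, scipy 1.17.1 and numpy 2.4.6 under Python 3.11.15.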

Additional observations from a re-analysis of the deposited data

Results flagged for a closer look

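*Slpi* was past the limit in opposite directions between cell classes. It was higher in the Cko in neutrophil-like cells (log2 ratio 1.03) and lower in cluster 10 (log2 ratio -1.83), a gap of 2.86 on the log2 scale. The gap to cluster 10 was 2.57 for B cell-like cells (log2 ratio 0.75) and 3.23 for erythroid-like cells (log2 ratio 1.40), in which *Slpi* was at most 8.51% and 4.27% of its highest class. With 1 library per genotype the difference between classes was not tested.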

How the results depend on the processing

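Of 531 inhibitor ratios recomputed under alternatives, 417 stayed within their counting interval, 110 moved beyond it and 4 were counted as reversed. Those 4, each past the limit in the main comparison, were *Cst7* (log2 -2.17) and *1100001G20Rik* (-0.33) in monocyte-like cells when the libraries were clustered separately, *Cst7* over non-erythroid cells (-0.05), and *1100001G20Rik* over all cells with clusters weighted as in the WT (-0.01). Ratios inside the limit changed sign too and are not in that count. Among them, *1100001G20Rik* in B cell-like cells went from log2 -0.30 to as high as 1.11. In erythroid-like cells *Cstb* went from 0.42 to as low as -0.71 and *Cst3* from 0.34 to -0.38. *Serpinb1a* went from 0.16 to -0.51 in progenitor-like and from 0.33 to -0.67 in monocyte-like cells. The cause was not tested. Separate clustering gave classes with other cells, with 1 inhibitor lower in progenitor-like cells, 2 higher and 1 lower in neutrophil-like, 1 higher and 2 lower in monocyte-like, and 6 higher in erythroid-like cells. With the inhibitors in the clustering 0 were higher in monocyte-like cells. Classes from marker scores gave 2 higher in neutrophil-like, 2 higher in B cell-like, and 1 higher and 1 lower in erythroid-like cells. Without called doublets 0 were higher in B cell-like cells and 2 in cluster 10, where centring also gave 2. A minimum of 300 UMIs left 1 higher in erythroid-like cells. A limit of 2-fold left 1 higher in monocyte-like cells, 0 in cluster 10, 0 in B cell-like cells and 4 over all cells. The middle maturation bin had 0 higher and 1 lower, with *Slpi* at 1.47-fold. Non-erythroid cells alone, and the WT weighting, each left 1 higher over all cells. Alternatives chosen after seeing the data gave 2 higher and 1 lower in neutrophil-like cluster 1, 0 higher in the lowest maturation bin, 1 higher in monocyte-like cluster 7 and 1 higher over all cells with clusters weighted as in the WT. Alternatives that recluster the cells were not run for cluster 10, which has no counterpart in them. In neutrophil-like cells *Slpi* lay between log2 0.43 (lowest maturation bin) and 1.30 (separate clustering) over the alternatives run, inside the limit in the lowest and middle bins.

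No paired analysis was possible because each genotype had 1 library. Mouse, preparation and genotype cannot be told apart. Depth limits *Wfdc17* and *Cst7* in neutrophil-like cells, and cluster 11 has 32 WT cells.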
